A study of Mus musculus with 9 samples.

Results

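Genes of the nuclear pore and of the importin, exportin and Ran transport machinery were followed in embryonic fibroblasts of mice that carry 1 of 3 forms of Rb1, which encodes the retinoblastoma protein RB. The set was fixed by a list of 36 symbols and not by their values. Of these, 34 had an array probe set of their own, out of 19938 genes measured, and Nup35 and Tpr were not analysed here. Where a gene had several probe sets, the brightest over the 9 arrays stood for it. Primary fibroblasts homozygous for the ΔG allele (Rb ΔG/ΔG), lacking Rb (Rb -/-, called null) or wild type (Rb +/+, WT) gave 3 arrays each. The ΔG protein is altered at the site through which it contacts most E2F transcription factors, and the extent of the deletion in the null allele is not given in the labels. All cultures were made in the same way, plated at low density in 15 cm dishes and given medium with 0.1% serum after 24 h, so every group was serum-deprived. The series text describes littermate pairing without saying which arrays share a litter.

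The nuclear pore is a channel through the nuclear envelope built from nucleoporins in repeated copies. A Y-shaped complex forms its outer rings, an inner ring braces the channel, membrane proteins anchor it, and nucleoporins with phenylalanine-glycine repeats fill the channel and form its filaments and basket. Importins carry proteins with a nuclear localisation signal inward, exportins carry cargo outward, and the small GTPase Ran in its GTP-bound form, abundant in the nucleus, sets the direction. Pores are assembled anew during interphase and again after mitosis, and several nucleoporins and Ran also act at kinetochores and on the spindle. RB represses E2F target genes in cells that have left the cell cycle.

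In null fibroblasts 15 of the 34 genes rose against WT and none fell, in a fit of all genes that called 8.38% of them higher and 10.1% lower. In ΔG fibroblasts none passed the test, where 0.602% of all genes were called higher and 0.211% lower. Of the 34 changes there, 26 were positive, against 43.3% of all genes. In null 29 of the 34 changes were positive, against 47.5% of all genes. The genes that rose encode parts of the outer ring, inner ring, central channel and basket, together with Ran, Ranbp1, Xpo1 and Kpna3. None of the 4 genes of the cytoplasmic filaments passed in any comparison. Over all genes 0.813% passed in ΔG minus WT, 18.4% in null minus WT and 8.71% in ΔG minus null. With 4 genes, a count of 0 is near those shares.

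The promoters of 4 genes are printed first, because RB acts on gene expression through E2F and the genes that rose could be read against E2F words in their promoters. They run from 250 bases before to 30 bases after the annotated start of transcription, 5′ to 3′ along the gene, and come from RefSeq on GRCm38.p6. Capitals mark a 7-letter E2F word, which is TTCCCGC on either strand, or one of its variants with the letters TTCGCGC, with the letters TTGCCGC or with the letters TTGGCGC. Ranbp1 rose in null and has 2 such words, Nup188 rose and has 1, Nup210 did not pass and has 1, and Nup54 rose the most among genes with a promoter in the table and has none. Ranbp1 lies at chr16:18248665-18248944 on the minus strand, Nup188 at chr2:30286166-30286445 on the plus strand, Nup210 at chr6:91116797-91117076 on the minus strand and Nup54 at chr5:92435170-92435449 on the minus strand.
Ranbp1: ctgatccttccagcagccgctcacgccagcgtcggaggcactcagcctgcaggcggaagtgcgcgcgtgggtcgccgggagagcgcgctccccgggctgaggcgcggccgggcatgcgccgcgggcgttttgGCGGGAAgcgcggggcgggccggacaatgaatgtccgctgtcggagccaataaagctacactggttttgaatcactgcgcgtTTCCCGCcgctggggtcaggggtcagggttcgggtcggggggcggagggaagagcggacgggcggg
Nup188: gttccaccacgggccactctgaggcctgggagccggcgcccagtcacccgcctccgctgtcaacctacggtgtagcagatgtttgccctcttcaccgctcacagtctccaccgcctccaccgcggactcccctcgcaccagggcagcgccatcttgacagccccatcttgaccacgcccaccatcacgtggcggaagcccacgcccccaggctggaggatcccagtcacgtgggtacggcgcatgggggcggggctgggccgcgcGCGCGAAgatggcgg
Nup210: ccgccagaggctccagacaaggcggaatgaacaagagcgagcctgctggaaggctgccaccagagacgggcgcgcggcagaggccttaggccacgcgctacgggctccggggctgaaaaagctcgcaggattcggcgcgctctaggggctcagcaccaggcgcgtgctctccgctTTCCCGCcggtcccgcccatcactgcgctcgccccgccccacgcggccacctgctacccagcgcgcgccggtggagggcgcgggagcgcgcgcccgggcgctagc
Nup54: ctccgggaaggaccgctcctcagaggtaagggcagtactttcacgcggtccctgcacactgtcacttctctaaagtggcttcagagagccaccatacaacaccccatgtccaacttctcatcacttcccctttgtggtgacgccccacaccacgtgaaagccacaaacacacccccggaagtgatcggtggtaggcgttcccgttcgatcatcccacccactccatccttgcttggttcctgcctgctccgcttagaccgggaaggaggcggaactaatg

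A promoter of 300 bases, from 250 before to 50 after the start, was given for 28 of the 34 genes. The same words with a further T in front, which are TTTCCCGC with the variants TTTCGCGC, then TTTGCCGC, then TTTGGCGC, are 8 letters long, and searched on both strands they were found in 2 of the 28, Ranbp1 and Nup210, which is 7.14%, against 3.08% of 15563 promoters of genes on the array. In Ranbp1 the word TTTCCCGC reads on the gene's own strand, and its last 7 letters lie 30 to 36 bases before the start. In Nup210 the same letters lie 69 to 75 bases before the start. The 7-letter words, which are the same words without their first letter and so overlap them, were added after the sequences had been seen. They were found in 6 of the 28, or 21.4%, against 13% of all. Aaas, Nup107 and Nup133 were the others beside Ranbp1, Nup188 and Nup210. Among the genes that rose in null and have a promoter, 2 of 11 held a 7-letter word (18.2%), and among those that did not pass, 4 of 17 (23.5%). The CHR element TTTGAA, known from promoters of mitotic genes, was found in 5 of 28 (17.9%), against 15.2% of all. It was in 1 of the 11 that rose (9.09%) and 4 of the 17 that did not pass (23.5%). The CCAAT box, whose other strand ATTGG can share letters with TTGGCGC, was found in 14 of 28 (50%), against 38.3% of all. It was in 4 of the 11 that rose (36.4%) and 10 of the 17 that did not pass (58.8%). A match is a string of letters and not a shown binding site, and these shares were not tested.

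Rb1, the altered gene, was lowest in null. Its log2 signal was 9.53, 9.76 and 9.54 on the ΔG arrays, 8.18, 8.58 and 8.19 on the null arrays and 8.93, 9.17 and 9.16 on the WT arrays. The null arrays lay below all others and the ΔG arrays above all others. The change was −0.77 in null minus WT on the log2 scale (limma adjusted p = 0.0011) and 0.53 in ΔG minus WT, which did not pass (adjusted p = 0.075). The values are RMA signals, which are background-corrected, quantile-normalised and on the log2 scale, so a difference of 1 is a doubling. Array medians lay between 6.33 and 6.40. The 10 fibroblast markers had a mean log2 signal of 11.45 to 11.62 on ΔG arrays, 10.92 to 11.09 on null arrays and 11.55 to 11.87 on WT arrays, against 5.50 to 5.96 for endothelial and epithelial markers over all arrays. Macrophage and leukocyte markers averaged 6.06 to 7.46 on ΔG, 5.85 to 6.21 on null and 5.63 to 6.81 on WT arrays, and none of the 10 passed the test in any comparison (1 higher at an unadjusted p under 0.05 in ΔG minus WT, none in null minus WT and 5 higher in ΔG minus null). Proliferation markers averaged 8.18, 8.03 and 8.85 on ΔG arrays 1 to 3, 9.30, 9.12 and 9.06 on null arrays 1 to 3 and 8.53, 7.87 and 7.93 on WT arrays 1 to 3. ΔG replicate 3 was thus closer to the null arrays in proliferation markers than the other ΔG arrays were. Xist, the RNA that marks cells with 2 X chromosomes, was 4.24 to 4.30 on all ΔG arrays, 11.5 to 12.0 on all null arrays, 4.31 and 4.45 on WT replicates 1 and 2 and 11.4 on WT replicate 3. Sex pattern and genotype therefore cannot be told apart between ΔG and null, and only partly separable when either is set against WT. In bulk RNA, a change in the share of cells that express a gene and a change per cell cannot be told apart.

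The comparison of null with WT asked which transport genes respond when RB is absent. Each gene was tested with limma, a linear model with a spread estimate shared across genes, and called at a Benjamini-Hochberg adjusted p under 0.05 over all 19938 genes. Over all genes 8.38% were called higher and 10.1% lower, and the median log2 change was −0.01. Among the 34 genes, 15 were called higher and none lower (1 lower at an unadjusted p under 0.05, Kpna1), with a median log2 change of 0.22. The changes were modest, from −0.15 to 0.79, and 2 of the 15 reached 1.5-fold. Of the 34, 20 had null arrays wholly above the WT arrays, against 15.7% of all genes, and 1, Kpna1, had them wholly below, where 34.7% of all genes did not overlap in either direction. Null against the WT array with the same Xist pattern, an alternative chosen after seeing the data, gave a median of 0.28. That array is WT replicate 3 alone, so the spread came from the null and ΔG arrays and the lone array was assumed to vary like them. A fit that takes the Y-linked signal as a covariate called 9 of the 34, with a median of 0.28. Over all genes it called 1580 in either direction, against 3678 without the covariate. Within ΔG and within null that signal varied little, so its slope rests mainly on WT replicate 3 against WT replicates 1 and 2. The values there were 4.37 against 8.48 and 8.88. This fit and the one with WT replicate 3 alone are therefore not separate checks. In null minus WT all 7 measured proliferation markers rose (median 1.03) and 8 of 10 fibroblast markers fell (median −0.59), and their part in the changes of the transport genes was not tested.

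**Figure D1:**
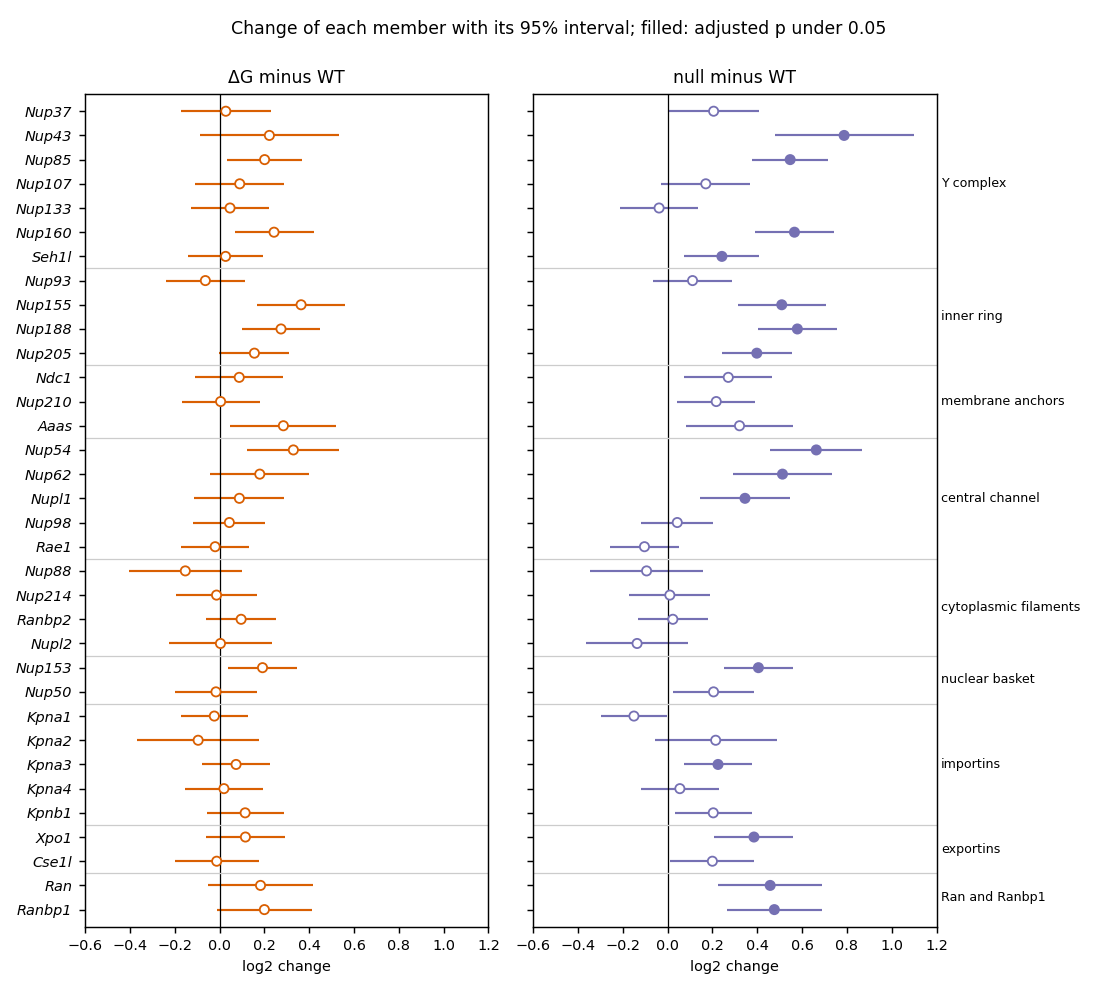
Log2 change of each gene (points) with its 95% confidence interval (lines), for ΔG minus WT on the left and null minus WT on the right, with genes grouped by their place in the pore or their role. Filled points have a limma adjusted p under 0.05: there are none in ΔG minus WT and 15 in null minus WT, and the cytoplasmic filament genes lie around 0 in both panels. Over all genes, 0.813% passed in ΔG minus WT and 18.4% in null minus WT.

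The Y complex, the scaffold of the outer rings, split into members that rose and members that did not pass. Nup43 changed the most of all 34 genes. Its log2 signal was 7.50, 7.18 and 7.75 in ΔG, 8.12, 8.17 and 7.83 in null and 7.39, 7.09 and 7.29 in WT. Every null array lay above every ΔG and WT array, while ΔG and WT overlapped. It rose 1.73-fold in null (log2 change 0.79, SE 0.14, n = 3 each, limma adjusted p = 0.0028), and with the Y-linked mean as a covariate the change was 0.71 and not called (adjusted p = 0.074). Nup85 read 7.92, 7.89 and 8.03 in ΔG, 8.26, 8.41 and 8.21 in null and 7.80, 7.69 and 7.73 in WT. The 3 genotypes did not overlap, with ΔG in between. Nup85 rose 1.46-fold in null (log2 change 0.55, SE 0.08, adjusted p = 0.00065).

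Nup160 showed the same order. It read 8.56, 8.65 and 8.65 in ΔG, 8.92, 9.03 and 8.86 in null and 8.51, 8.31 and 8.30 in WT, and no 2 groups overlapped. It rose 1.48-fold in null (log2 change 0.57, SE 0.08, adjusted p = 0.00069). Seh1l, a small propeller protein of the same complex that also serves in nutrient signalling to mTORC1, rose 1.18-fold (adjusted p = 0.048) and was no longer called in 12 of 18 alternatives, including each fit with 1 WT array removed. Nup37, Nup107 and Nup133 had log2 changes of 0.21, 0.17 and −0.04 in null, with adjusted p-values of 0.16, 0.24 and 0.81. In all, 4 of the 7 measured Y-complex genes rose, against 8.38% of all genes, with a median of 0.24. The nearest cofactors outside the list, Sec13, a shared subunit of the Y complex and of vesicle coats, and Ahctf1, which seeds pores on chromatin, had changes of −0.06 and 0.07 (adjusted p = 0.76 and 0.52).

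The inner ring, the scaffold that lines the channel, had 3 of 4 measured genes higher in null, against 8.38% of all genes. Nup188 read 9.14, 9.34 and 9.32 in ΔG, 9.54, 9.66 and 9.51 in null and 9.04, 9.03 and 8.91 in WT. The groups were fully separate, with ΔG between null and WT. Nup188 rose 1.49-fold in null (log2 change 0.58, SE 0.08, adjusted p = 0.00057). Nup155 read 9.08, 9.17 and 9.21 in ΔG, 9.28, 9.34 and 9.27 in null and 8.97, 8.77 and 8.62 in WT. Its ΔG values lay just under the null values and above all WT values. Nup155 rose 1.42-fold in null (log2 change 0.51, SE 0.09, adjusted p = 0.0025). Nup205, the close relative of Nup188, rose 1.32-fold (adjusted p = 0.0028). Nup93, which links the ring to the channel proteins, had a log2 change of 0.11 (adjusted p = 0.41).

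In the central channel, the trimer of Nup62, Nup54 and Nupl1 rose in null, all 3 of them, against 8.38% of all genes. These proteins carry phenylalanine-glycine repeats and form the permeability barrier. Nup54 read 8.51, 8.46 and 8.59 in ΔG, 8.92, 8.87 and 8.77 in null and 8.13, 8.05 and 8.40 in WT. The null arrays were highest throughout, and WT replicate 3 lay near the ΔG arrays. Nup54 rose 1.58-fold in null (log2 change 0.66, SE 0.09, adjusted p = 0.00066), and the difference was 0.46 against WT replicate 3 alone. Nup62 read 8.55, 8.46 and 8.83 in ΔG, 8.90, 9.10 and 8.84 in null and 8.43, 8.43 and 8.45 in WT. ΔG replicate 3 stood apart from the other ΔG arrays and just below the lowest null array. Nup62 rose 1.43-fold in null (log2 change 0.51, SE 0.10, adjusted p = 0.0047). The difference was 0.50 against WT replicate 3 alone, and 0.47 and not called with the Y-linked covariate (adjusted p = 0.094).

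Nupl1, which encodes Nup58, rose 1.27-fold (adjusted p = 0.022). It lost its call in 5 of 18 alternatives. These included the fits without WT replicate 3, null replicate 1 or null replicate 2 (adjusted p = 0.078, 0.095 and 0.075). The fit with the Y-linked covariate was another, with a change of 0.47 (adjusted p = 0.057). Nup98, a repeat protein at both faces of the pore, and its mRNA export partner Rae1 had log2 changes of 0.04 and −0.10 (adjusted p = 0.76 and 0.37). Their 95% intervals, −0.12 to 0.20 and −0.26 to 0.05, leave out changes as large as those of the channel trimer. Rae1 had a second, dimmer probe set, whose null minus WT difference was 0.02.

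**Figure D2:**
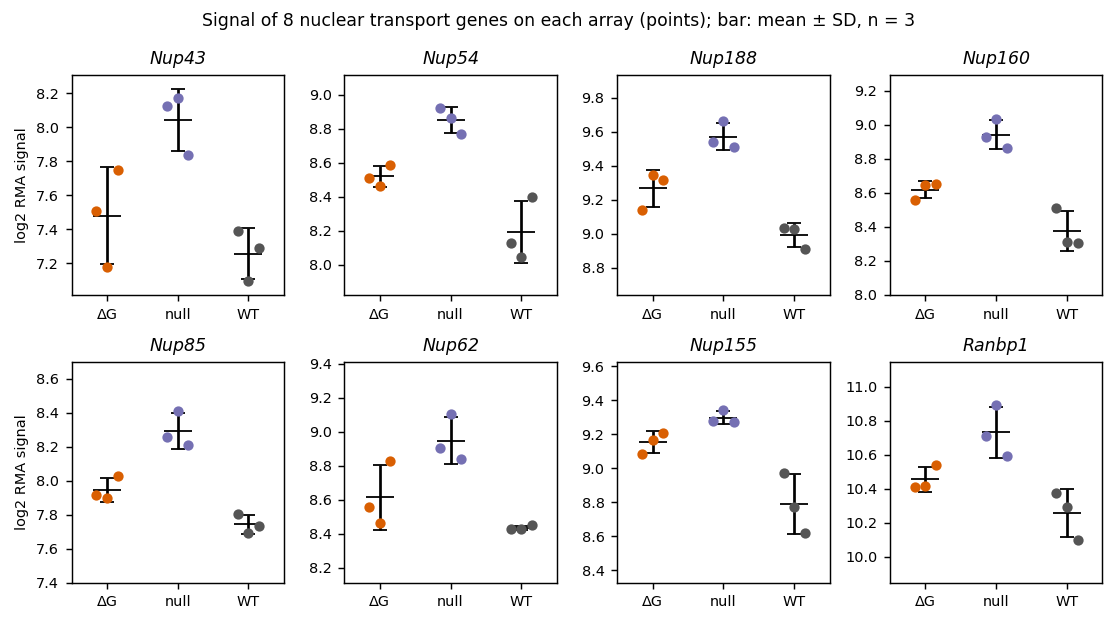
Log2 RMA signal of the 8 called genes with the largest change in null minus WT, with 1 point per array for ΔG, null and WT and a bar for the mean ± SD (n = 3). In each panel the 3 null arrays lie above the 3 WT arrays, and all panels span the same range of 1.3 log2 units.

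The cytoplasmic filaments, where export complexes are taken apart, had no called gene in any comparison, and their changes lay near 0. With 4 genes, and 18.4% of all genes called in null minus WT, a count of 0 is near the share of all genes. Nup88, Nup214, Ranbp2 and Nupl2 had log2 changes of −0.09, 0.01, 0.02 and −0.14 in null minus WT, with adjusted p-values of 0.44 to 0.96. Their 95% intervals all ended below 0.20 on the upper side. Ranbp2, the largest filament protein, read 10.13, 10.20 and 10.04 in ΔG, 10.07, 10.04 and 10.05 in null and 10.10, 10.02 and 9.96 in WT, so the groups overlapped. At the opposite face, the basket nucleoporin Nup153 rose 1.32-fold in null (log2 change 0.40, SE 0.07, adjusted p = 0.0022), while its partner Nup50 had a change of 0.20 (adjusted p = 0.12). The membrane anchors Ndc1 and Nup210 and the adaptor Aaas, which Ndc1 holds at the pore, had changes of 0.27, 0.22 and 0.32, with null arrays above all WT arrays in each. None passed (adjusted p = 0.058, 0.084 and 0.062), and all 3 were called after a second quantile normalisation. Pom121, a further membrane nucleoporin outside the list, rose by 0.35 (adjusted p = 0.025).

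Among the transport factors, 4 of 9 rose in null, with a median log2 change of 0.21, against 11 of 25 nucleoporins with a median of 0.24 and 8.38% of all genes. The difference between these classes was not tested. Ranbp1, which helps to trigger GTP hydrolysis on Ran in the cytoplasm, read 10.41, 10.42 and 10.54 in ΔG, 10.71, 10.89 and 10.59 in null and 10.37, 10.29 and 10.10 in WT. The 3 groups were separate and ΔG lay in between. It rose 1.39-fold in null (log2 change 0.48, SE 0.10, adjusted p = 0.0055), and its promoter is the one printed above with 2 E2F words. Ran itself read 8.96, 8.82 and 9.23 in ΔG, 9.34, 9.37 and 9.14 in null and 8.87, 8.85 and 8.75 in WT. ΔG replicate 3 reached the null range. Ran rose 1.37-fold in null (log2 change 0.46, SE 0.11, adjusted p = 0.011). The difference was 0.53 against WT replicate 3 alone, and 0.51 and not called with the Y-linked covariate (adjusted p = 0.083).

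The exportin Xpo1, which carries proteins with a leucine-rich export signal, rose 1.31-fold (log2 change 0.39, SE 0.08, adjusted p = 0.0064). Cse1l, the exportin that returns importin alpha to the cytoplasm, had a change of 0.20 (adjusted p = 0.14). The importin alpha genes, adaptors for the classical localisation signal, differed in sign. Kpna3 rose 1.17-fold (adjusted p = 0.045) and lost its call in 14 of 18 alternatives, among them every omission of 1 array except null replicate 3. Kpna1 was lower on all null arrays, at 8.25, 8.28 and 8.21 against 8.38, 8.48 and 8.34 in WT, with a change of −0.15 that did not pass (adjusted p = 0.16). Kpna4 had a change of 0.05 (adjusted p = 0.72), and Kpnb1, the importin beta that the adaptors bind, had a change of 0.20 (adjusted p = 0.10).

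Kpna2, an importin alpha known for high expression in dividing cells, had 3 probe sets. In the one with the highest mean it read 10.05, 9.97 and 10.38 in ΔG, 10.62, 10.52 and 10.20 in null and 10.32, 10.17 and 10.20 in WT. Null and WT overlapped, and the log2 change of 0.21 did not pass (adjusted p = 0.29). The neighbours of that probe set in number order belong to chromosome 3, and those of another to chromosome 17, while the gene lies on chromosome 11, and which copy of the sequence these 2 report was not tested. The probe set among chromosome 11 neighbours gave a difference of 0.26, and the third gave 0.26 as well.

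**Figure D3:**
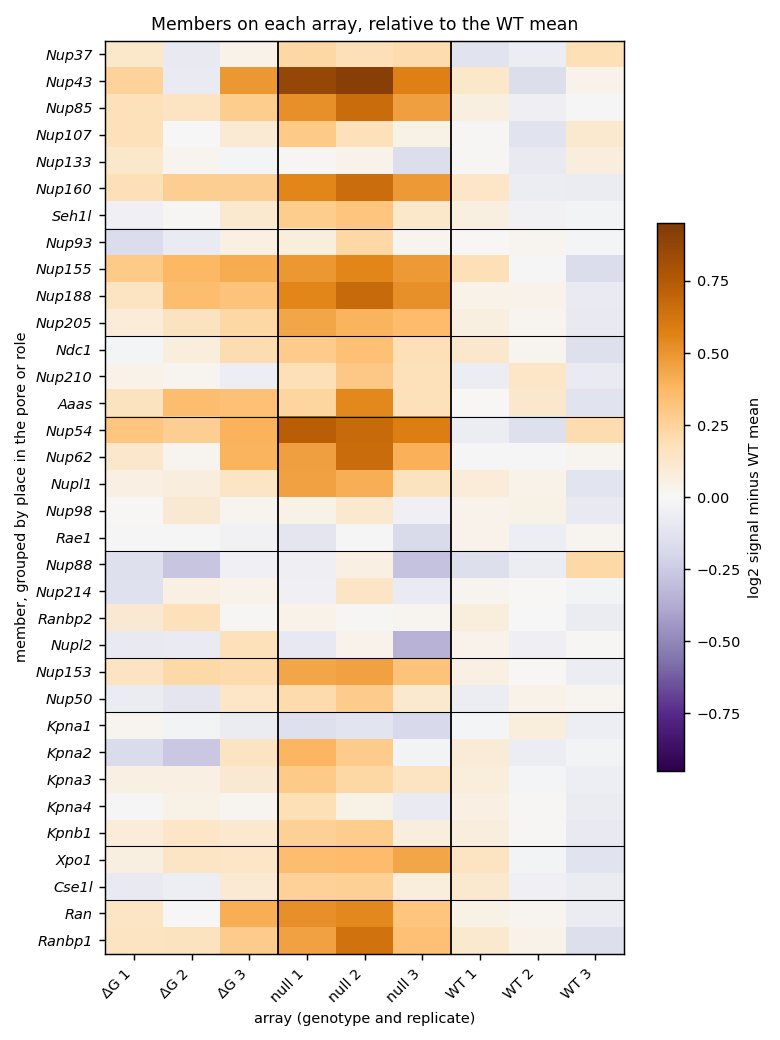
Log2 signal of each of the 34 genes on each array relative to the mean of the WT arrays, with ΔG, null and WT arrays from left to right and genes grouped by place or role from top to bottom. Null arrays are orange for most genes outside the cytoplasmic filaments, with null replicate 3 paler than the others, and ΔG replicate 3 is the most orange of the ΔG arrays.

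The genes moved together by array as well as by genotype. The median deviation of the 34 genes from the WT mean was 0.07, 0.05 and 0.13 on ΔG replicates 1, 2 and 3 and 0.28, 0.29 and 0.16 on null replicates 1, 2 and 3. For all genes the same value lay between −0.03 and 0.01 on these arrays. Of the 34 genes, 16, 14 and 22 on ΔG replicates 1, 2 and 3 and 27, 26 and 21 on null replicates 1, 2 and 3 exceeded every WT array. Among all genes these shares were 21.2%, 28.7% and 23.9% on the ΔG arrays and 30.1%, 34.8% and 27.3% on the null arrays. Null replicate 3, the lowest of its group here, was also the lowest in proliferation markers, and ΔG replicate 3, the highest of its group here, was the highest in them. The order was not the same for every array. WT replicate 1 averaged 8.53 in proliferation markers, above ΔG replicates 1 and 2 at 8.18 and 8.03. Its median deviation of the 34 genes was 0.05, against 0.07 and 0.05 on those ΔG arrays. The part of proliferation in these values was not tested.

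The comparison of ΔG with WT asked whether losing the common E2F contact alone is enough to change the transport genes. No gene of the 34 was called in either direction by limma, where 0.602% of all genes were called higher and 0.211% lower. At an unadjusted p under 0.05, 7 were higher and none lower, against 5.3% and 6.46% of all genes. The 7 were Nup155, Nup54, Nup188, Nup160, Aaas, Nup85 and Nup153, all nucleoporins. The largest changes were those of Nup155 at 0.36 (SE 0.09, 1.29-fold, adjusted p = 0.10) and Nup54 at 0.33 (SE 0.09, 1.26-fold, adjusted p = 0.16). ΔG arrays lay wholly above WT arrays for 11 of the 34 genes and wholly below for none, where 7.05% of all genes lay above. The median change was 0.09, against −0.02 over all genes.

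Single arrays decided whether any gene passed in ΔG. Without WT replicate 3, which leaves the WT arrays with the sex pattern of the ΔG arrays, Nup54 had a change of 0.43 and was called (adjusted p = 0.049), as it was with the Y-linked covariate (0.44, adjusted p = 0.041). That covariate turns mainly on the same WT array, so these fits are not separate checks. Without WT replicate 1, Nup155 had a change of 0.46 and was called (adjusted p = 0.045). Without ΔG replicate 3 none of the 34 was called, and the median change was 0.06. The 5 importins had changes of both signs, from −0.10 to 0.11, with a median of 0.02. Ran and Ranbp1 had changes of 0.18 and 0.20 (adjusted p = 0.56 and 0.46).

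**Figure D4:**
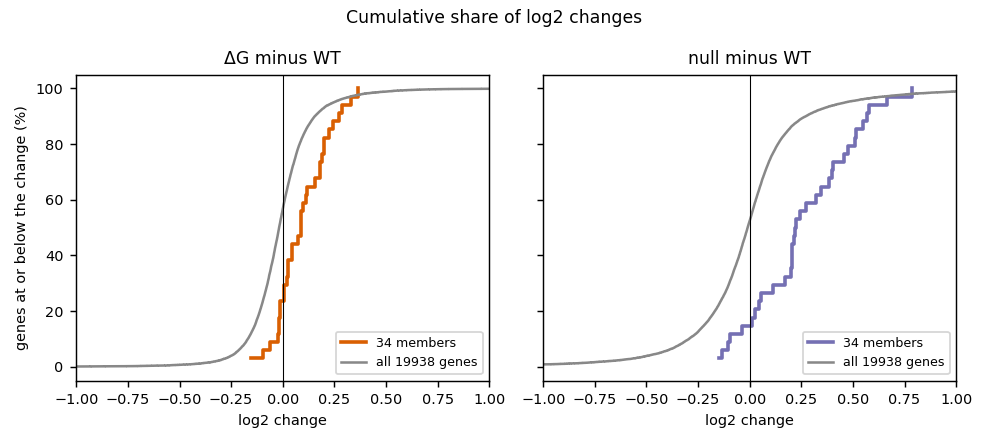
Share of genes, in percent, at or below each log2 change, for the 34 transport genes (colour) and for all 19938 genes (grey), with ΔG minus WT on the left and null minus WT on the right. The coloured curve lies to the right of the grey one over most of its range in both panels, with medians of 0.09 and −0.02 in ΔG minus WT and of 0.22 and −0.01 in null minus WT.

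Set directly against null, ΔG was lower for 5 genes and higher for none, where 4.27% of all genes were called lower and 4.44% higher, 8.71% together. Nup43, Nup85, Nup54, Nup160 and Nup188 were the 5, with log2 changes of −0.57, −0.35, −0.33, −0.32 and −0.30 in ΔG minus null (limma adjusted p = 0.018 to 0.049). The median over the 34 genes was −0.20, and 6 of the 34 changes were positive, against 47.9% of all genes. The Y-linked mean was 8.40 to 8.90 on ΔG arrays and 3.96 to 4.08 on null arrays. As a covariate it nearly repeats the genotype in this comparison, so a call lost with it decides nothing. None of the 5 was called with this covariate, where the changes were −0.45 for Nup43, −0.34 for Nup85, −0.41 for Nup160, −0.42 for Nup188 and 0.01 for Nup54, and the median of the 34 was −0.24. None was called either without ΔG replicate 1, ΔG replicate 2, null replicate 1 or null replicate 2, although the changes of the 5 stayed between −0.58 and −0.24 in these fits. Without ΔG replicate 3, 10 of the 34 genes were called lower, in a fit that called 2408 of all genes in either direction, against 1737 with all arrays. For all 15 genes that rose in null, the ΔG mean lay between the WT mean and the null mean. These comparisons share arrays, and the 15 were picked because null lay above WT, which favours a ΔG mean in between. The same share among all genes called higher in null was not computed, so the count is a description. For Nup155 the 3 contrasts read 0.36 in ΔG minus WT, 0.51 in null minus WT and −0.15 in ΔG minus null (95% interval −0.34 to 0.05), so a difference between the alleles was not shown for it.

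The rest of the transport machinery, from a list of 37 measured genes outside the set, moved less evenly. In null minus WT 7 rose and 3 fell, with a median of 0.05, against 15, 0 and 0.22 in the set and 8.38% higher and 10.1% lower among all genes. Ranbp17, a member of the exportin family, rose most, at 7.25, 7.21 and 7.38 in ΔG, 7.73, 7.73 and 7.82 in null and 6.88, 6.69 and 6.96 in WT. No 2 groups overlapped. It rose 1.89-fold in null (adjusted p = 5.0e-05) and 1.35-fold in ΔG (adjusted p = 0.046), the only one of the 37 called in ΔG minus WT, and the ΔG call was lost in 11 of 18 alternatives, among them every omission of 1 array except WT replicate 3. Ipo5, an importin beta for ribosomal proteins and histones, rose 1.42-fold in null (adjusted p = 0.00045), and Nxt1, a partner of the mRNA export receptor, rose 1.44-fold (adjusted p = 0.0034). Ranbp6, a relative of Ipo5, was 1.38-fold lower in null (adjusted p = 0.0072), with ΔG values of 6.69, 6.69 and 6.84, null values of 6.79, 6.51 and 6.78 and WT values of 7.03, 7.14 and 7.32. Nup62cl, a gene on the X chromosome related to Nup62, fell by 0.66 in null (adjusted p = 0.0070), and its difference was −0.33 against WT replicate 3 alone. With the Y-linked covariate its change was −0.30 and not called (adjusted p = 0.29). In ΔG minus WT, Ranbp6, Ipo5 and Ipo9 had changes of −0.42, 0.25 and 0.22 (adjusted p = 0.095, 0.15 and 0.20).

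Helicase and nuclear envelope genes give a scale for these changes. The 6 genes of the replicative helicase, direct E2F targets, were all called higher in both comparisons, with medians of 1.32 in ΔG minus WT and 1.74 in null minus WT. Of 14 nuclear envelope genes, 2 rose in ΔG and 5 in null, where 0.602% and 8.38% of all genes did. Their medians were 0.02 and 0.22, against 0.09 and 0.22 for the transport genes and −0.02 and −0.01 for all genes. Differences between these lists were not tested.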

How the data were processed

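RNA from 9 cultures was hybridised to Affymetrix Mouse Gene 1.0ST arrays, 1 per culture. The deposited table holds log2 values that the authors made by RMA in BRB-ArrayTools, per the labels' design text, and the submitters' processing notes also name the affy package. RMA equalises the distribution of signals between arrays, so a shift shared by all genes would not be seen. Of 35512 probe sets, 21789 had a single gene symbol in the platform annotation, 1621 had several and were not used, and 12101 had none. The brightest probe set on average was kept per gene, which gave 19938 genes.

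Values were fitted with limma 3.58.1 in R 4.3.3, with a mean per genotype over all 9 arrays, moderated variances and Benjamini-Hochberg adjustment over all genes. The fit has 6 residual degrees of freedom, and the script was tested on simulated data. The labels do not say that the 3 cultures of a genotype came from separate embryos, so p-values measure the spread between these arrays. The number of arrays limits the precision. Alternatives were other probe set rules, centring, a second quantile normalisation, removal of dim genes, a variance trend, only the 2 groups compared, a replicate block, the Y-linked mean as a covariate and omission of each array. The use of WT arrays with the same sex pattern and the 7-letter words were added after seeing the data. Per-array values are given for the 8 called genes with the largest change in null minus WT and for genes that the text turns on. The genes, lists and tests were chosen with earlier results of these data known.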

Additional observations from a re-analysis of the deposited data

How the results depend on the processing

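Over the 34 genes and 3 comparisons, 1650 of 1802 recomputed results kept their direction and their side of the threshold, 67 lost a call and 33 gained one. A further 51, from 23 results whose main log2 change was at most 0.18 in size, changed sign without being called in either fit. Most of these results were not called in the main fit and had no call to lose. Of the 15 genes called higher in null minus WT, 9 stayed called under all 18 alternatives and 6 did not. Each of the 5 called lower in ΔG minus null lost its call in at least 5 of 17. Of the called changes 1 turned its sign, Nup54 in ΔG minus null with the Y-linked covariate (0.014, not called). With that covariate 1 gene was called higher in ΔG minus WT, 9 in null minus WT and 0 lower in ΔG minus null, and genes called over the whole array fell to 1580 in null minus WT and 53 in ΔG minus null, against 3678 and 1737. In ΔG minus null the covariate nearly repeats the genotype, so the calls lost there decide nothing. With only WT arrays of the same sex pattern, 1 of the 34 genes was called in ΔG minus WT, and 1782 genes of the whole array in null minus WT. A second quantile normalisation gave 13 genes lower in ΔG minus null and 21 higher in null minus WT. The cause of these shifts was not tested. Omission of single arrays gave 62 to 252 genes called over the whole array in ΔG minus WT, against 162 with all arrays. The count was 62 when WT replicate 2 was left out, 83 and 70 when ΔG replicates 1 and 2 were, 252 with ΔG replicate 3 omitted, and 91 in the fit that lacked null replicate 1. The same omissions gave 2546 to 3895 in null minus WT and 762 to 2408 in ΔG minus null. Of the 34 genes, 0 to 1 were called higher in ΔG minus WT, 12 to 17 higher in null minus WT and 0 to 10 lower in ΔG minus null. Their medians ran from 0.06 to 0.12, from 0.21 to 0.28 and from −0.23 to −0.17 in these 3 comparisons. The deviations of arrays with the same replicate number correlated between −0.08 and 0.27, and not every array correlated best with its own number, so the numbers were not taken as pairs. With the replicate number as a block, 0 genes of the 34 were called in ΔG minus WT, 14 higher in null minus WT and 4 lower in ΔG minus null, and 211, 3777 and 1977 genes were called over the whole array.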
